A study of Homo sapiens with 4 samples.

Results

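FOXK2 ChIP-seq peaks assigned to the DEAD and DEAH box helicase genes were examined in OVCAR5 cells. Members were chosen by name: a peak was taken when the gene nearest to it, as given in the deposited annotation, had a symbol made of DDX or DHX, a number and at most 1 letter A, B or L, and 1 gene that fits this pattern was left out. The rule gave 22 of 12471 peaks in replicate 1, on 20 genes, and 65 of 27281 peaks in replicate 2, on 36 genes. Together the lists touched 38 genes, out of 52 member genes among 20037 protein-coding genes in RefSeq (GRCh38.p14).

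DEAD and DEAH box proteins are named after a short motif of their ATP-binding core. They use ATP to unwind RNA or to strip proteins from it, and act in pre-mRNA splicing, ribosome production, mRNA export, translation and decay, and in the sensing of viral RNA. FOXK2 is a forkhead transcription factor, and forkhead proteins bind DNA with TGTTTAC as a common core sequence.

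OVCAR-5 is an established ovarian cancer cell line, which the labels call high grade serous, with ascites as its source and a passage of 4 to 6. Both ChIP libraries came from this line with an antibody against FOXK2, with no treatment named, and the study calls them biological duplicates. The design therefore held 1 condition with 2 replicates, and no comparison between conditions was possible. The 2 input libraries and the expression of the genes were not analysed here.

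All peaks of replicate 1 had the same length of 210 bp, and those of replicate 2 a length of 256 bp. The score of a peak reflects the tags in the peak, scaled to the library, so scores were compared only within a list, as a rank and as a percentile (100 is the strongest). The number of reads is not given in the lists, and the depth behind a single peak is known only through this score.

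The exact heptamer TGTTTAC lay within 100 bp of the peak centre in both replicates at 5 member genes. These sites are shown because they are the places where a peak found in both replicates and the forkhead core coincide. All are 5′ to 3′ from hg38, on the strand that reads TGTTTAC, with the heptamer in capitals. The DHX8 site, chr17:43483922-43483950 on the minus strand, and the DDX5 site, chr17:64506585-64506613 on the plus strand, lie in an annotated exon of the gene in GENCODE release 44. The DDX17 site (chr22:38506353-38506381, minus strand), the DDX19B site (chr16:70299489-70299517, plus strand) and the DDX31 site (chr9:132703508-132703536, plus strand) lie in no annotated exon.
DHX8: cgcgtccccttTGTTTACggtaaattgaa
DDX5: ccactcggagaTGTTTACgtctccaaaga
DDX17: ttccgaggcgcTGTTTACgtatcgtctcc
DDX19B: tgagctggcttTGTTTACgcagccgcctc
DDX31: tctagttttctTGTTTACattcctctgta

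These genes were chosen for a heptamer within 100 bp of the peak centre, which limits its offsets, and no offsets over all peaks are given beside them. At DHX8 the middle base of the heptamer was 2 bp from the peak centre in replicate 1 and 5 bp in replicate 2. At DDX5 the offsets were 17 and 11 bp, at DDX17 they were 24 and 10 bp, and at DDX19B they were 16 and 35 bp. The DDX31 heptamer was 1 bp above the centre in replicate 1 and 14 bp below it in replicate 2, in genome coordinates. In RefSeq promoters, taken from 250 bases before to 50 after the gene start, TGTTTAC was in 3 of 47 member genes with an entry (6.38%, Wilson 95% interval 2.19% to 17.2%), namely DDX17, DDX5 and DHX8, and in 594 of 15843 protein-coding genes (3.75%). All 3 had a promoter peak in both replicates.

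A peak in both replicates was assigned to 18 of the 52 member genes (34.6%, Wilson 95% interval 23.2% to 48.2%), where 28.6% of all protein-coding genes had one. The intervals cover counting error only. In replicate 1 the members with a peak numbered 20 (38.5%, 26.5% to 52%), against 31.3% of all protein-coding genes, and in replicate 2 they numbered 36 (69.2%, 55.7% to 80.1%), against 51.7%. At each of the 18 genes at least 1 peak of replicate 1 overlapped a peak of replicate 2, and the share of all genes for which this held was 25.5%. In replicate 1 and in the count over both replicates the background lay within the interval of the members. It lay below that interval in replicate 2, the longer list.

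Promoters set the members further from the background. A peak of the promoter class was found in both replicates at 12 of 52 members (23.1%, 13.7% to 36.1%), against 9.31% of all protein-coding genes. These were DDX5, DDX17, DDX19A, DDX21, DDX46, DDX50, DDX51, DDX55, DDX58, DDX59, DHX8 and DHX30, and their promoter peaks overlapped between replicates at all 12, against 9.03% of all genes. When a peak counted for every gene with a GENCODE transcript start in reach (1000 bp upstream to 100 bp downstream), whatever gene the files named, 19 members had one in both replicates (36.5%, 24.8% to 50.1%), against 15.0%. No set test was run.

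**Figure D1:**
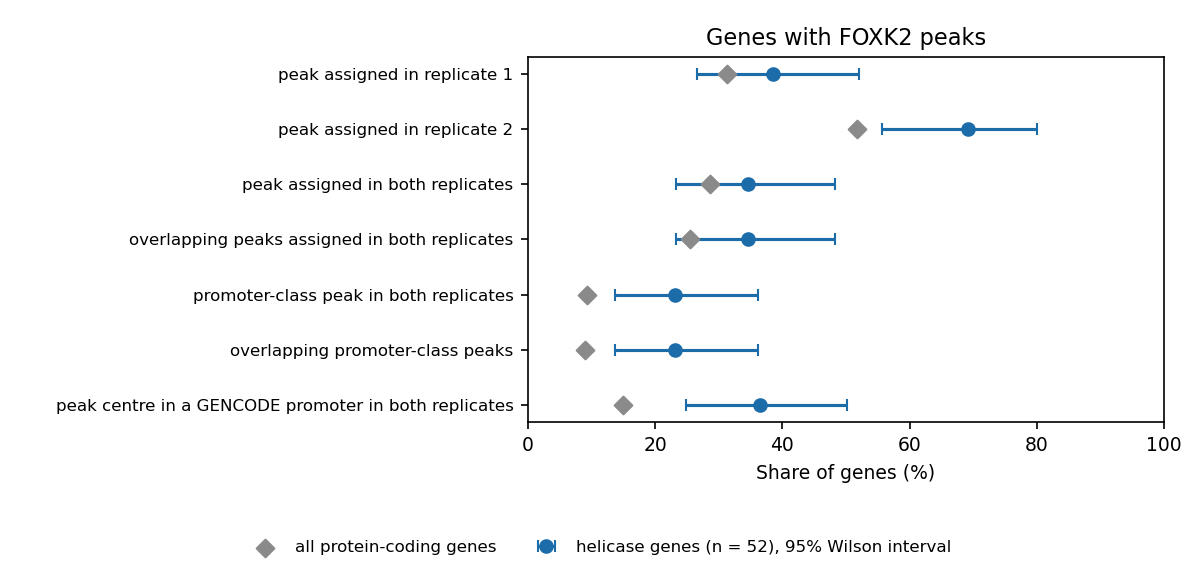
Share of genes with FOXK2 peaks (horizontal axis, percent) under the 7 ways of counting named on the vertical axis. Circles are the 52 helicase genes with 95% Wilson intervals and diamonds are all protein-coding genes; the diamond lies left of the interval for the promoter counts and for replicate 2, and inside it for the other counts.

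The promoter peak of DHX8, a DEAH box protein that releases spliced mRNA from the spliceosome, was the strongest of the family. It scored 40.2 in replicate 1, at rank 32 of 12471 and percentile 99.74, and 69.5 in replicate 2, at rank 54 of 27281 and percentile 99.80. The centres lay 17 and 14 bp downstream of the TSS, the start site of transcription, and the focus ratio, the fraction of tags on the expected side of the centre, was 0.91 and 0.877. A further pair of DHX8 peaks lay upstream, with a score of 8.87 and rank 2511 at -14432 bp in replicate 1, and a score of 15.6 and rank 2990 at -14547 bp in replicate 2. TGTTTAC was not found there.

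DDX5 and DDX17 are close paralogs that act as splicing factors and as partners of transcription factors. The DDX5 promoter peak scored 24.3 in replicate 1 (rank 163, percentile 98.68, -61 bp, focus ratio 0.865) and 48.2 in replicate 2 (rank 162, percentile 99.41, -67 bp, focus ratio 0.812). CEP95 starts 688 bp upstream of the canonical GENCODE start of DDX5, on the other strand. From that start the DDX5 heptamer lay at -310 bp, so the -61 and -67 bp refer to another start of DDX5. A peak between DDX5 and CEP95 cannot be assigned to either gene from its position. The DDX17 peak was weaker, with a score of 6.79 in replicate 1 (rank 4624, percentile 61.86, -3 bp, focus ratio 0.8) and 9.67 in replicate 2 (rank 8342, percentile 68.92, -17 bp, focus ratio 0.776). Both paralogs thus had TGTTTAC and a promoter peak in both replicates, but DDX5 stood near the top of each list and DDX17 in its middle part.

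DDX46, which helps the U2 snRNP to join the pre-mRNA, had the strongest promoter pair without the heptamer. Its peak scored 21.3 in replicate 1 (rank 232, percentile 98.13, 45 bp, focus ratio 0.81) and 26.2 in replicate 2 (rank 786, percentile 97.11, 49 bp, focus ratio 0.831). Sites that differ from TGTTTAC by 1 base occurred in it, A6T at 4 bp and C7G at 55 bp from the centre in replicate 1, where position 1 is the first T of TGTTTAC. Of all replicate 1 peaks, 73.6% held such a site or the exact heptamer, and of the helicase peaks 59.1% did (13 of 22, 38.7% to 76.7%), so finding one is common. In replicate 2 the shares were 72.7% and 58.5% (38 of 65, 46.3% to 69.6%). The share of all peaks lay within the helicase interval in replicate 1 and above it in replicate 2.

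Among the 13 splicing helicases, 5 had a peak in replicate 1, 9 in replicate 2 and 4 in both, all 4 with overlapping promoter peaks. The shares of all protein-coding genes were 31.3%, 51.7% and 28.6%, and 9.03% for overlapping promoter peaks, and no test of the group was run. DDX23, a helicase of the U5 snRNP, had a promoter peak in replicate 1 only (score 4.72, percentile 26.7, -150 bp). DHX15, which takes spliceosomes apart after splicing, had 6 peaks in replicate 2 and none in replicate 1. Its promoter peak was among the weaker ones (score 4.91, percentile 20.09, -2 bp), and the other 5 lay between -73736 bp and 21012 bp of the TSS. DDX39A, DDX41, DHX16 and DHX35 also had peaks in replicate 2 only, and DDX39B, DDX42 and DHX38 had none assigned.

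By the mean percentile of both replicates, the strongest pair outside the promoter class was that of DDX56, a nucleolar helicase of large ribosomal subunit assembly. The peak lay in the 5′ UTR of exon 1, with a score of 14.7 in replicate 1 (rank 625, percentile 94.89, 610 bp, focus ratio 0.86) and 21.3 in replicate 2 (rank 1309, percentile 95.16, 557 bp, focus ratio 0.81). By GENCODE transcript starts its centre lay in the DDX56 promoter in both replicates, so its class depends on the start used. DDX31, a nucleolar protein, had an intergenic pair at -33120 and -33135 bp, inside a MER101-int element, an internal part of an endogenous retrovirus. This pair scored 14.9 in replicate 1 (rank 603, percentile 95.08, focus ratio 0.879) and 20.8 in replicate 2 (rank 1379, percentile 94.88, focus ratio 0.883), and it held the heptamer printed above. Percentiles of DDX56 and DDX31 differed by less than 1 between replicates.

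Ribosome production was the largest group, with 16 genes, of which 8 had a peak in replicate 1, 13 in replicate 2 and 8 in both, all 8 with overlapping peaks and 4 with overlapping promoter peaks. Beside these stand 31.3%, 51.7% and 28.6% of all protein-coding genes, 25.5% with overlapping peaks and 9.03% with overlapping promoter peaks, again with no test of the group. DDX21 and DDX50 are paralogs that lie side by side on chromosome 10, and both had a promoter pair. The DDX21 peak scored 5.85 (rank 6145, percentile 49.09, -83 bp, focus ratio 0.695) in replicate 1 and 8.48 (rank 10552, percentile 60.73, -87 bp, focus ratio 0.725) in replicate 2. The DDX50 peak scored 5.47 (rank 6955, percentile 42.57, -15 bp, focus ratio 0.607) and 9.82 (rank 8096, percentile 69.88, -21 bp, focus ratio 0.718). Both were medium-strength peaks. In replicate 1, DDX21 sat at the list's median score of 5.85 and DDX50 below it, and in replicate 2 both were above the median score of 7.29.

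DDX51 and DDX55, also linked to the large ribosomal subunit, had promoter pairs as well. For DDX51 the score was 8.11 in replicate 1 (rank 3127, percentile 74.23, -36 bp, focus ratio 0.771) and 9.37 in replicate 2 (rank 8868, percentile 67.09, -23 bp, focus ratio 0.706). For DDX55 it was 4.53 (rank 9428, percentile 21.9, -135 bp, focus ratio 0.647) and 6.39 (rank 16067, percentile 40.24, -59 bp, focus ratio 0.545), in the lower part of both lists. DDX47, which takes part in rRNA processing, had an intergenic pair in an MLT1N2 element, at -9954 bp (score 7.17, rank 4101, percentile 66.13, focus ratio 0.793) and -9950 bp (score 12.0, rank 5326, percentile 80.23, focus ratio 0.779).

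DDX18 had the most peaks of any member, 2 in replicate 1 and 9 in replicate 2, but 8 of the 9 were intergenic, from -52958 to -1095991 bp. A single pair overlapped, by 96 bp, at -582272 and -582135 bp (scores 6.23 and 10.7, percentiles 54.89 and 74.61), in an L1PB2 element. Of the 9 replicate 2 peaks, 5 held TGTTTAC, and none of those 5 had a partner in replicate 1. Of all replicate 2 peaks, 28.2% held the heptamer and 34.2% had a partner, so most lacked one. Its promoter peak was called in replicate 2 only (score 11.9, percentile 79.7, -54 bp). The nearest-TSS assignment is all that ties such distant peaks to DDX18.

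Other nucleolar members had peaks in replicate 2 only. DDX10 had a promoter peak with TGTTTAC (score 15.3, rank 3113, percentile 88.47, -207 bp), the highest percentile of the 45 helicase peaks without a partner in replicate 1. DDX24, DDX52 and DHX37 were also found in replicate 2 only. For DDX49 the lists disagreed on the gene and not on the site: the replicate 2 peak (score 20.5, rank 1455, percentile 94.62) was assigned to DDX49 at -124 bp, and the replicate 1 peak that it overlaps by 210 bp (score 10.2, rank 1751, percentile 85.6) was assigned to COPE, which starts 328 bp upstream on the other strand.

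In the group of mRNA export, translation and decay, 7 genes in all, DDX19A and DDX19B had peaks in both replicates, 2 of 7 beside 28.6% of all protein-coding genes. These are neighbouring paralogs on chromosome 16 that act in mRNA export at the nuclear pore. The DDX19A promoter peak scored 7.92 (rank 3303, percentile 72.82, 114 bp, focus ratio 0.645) in replicate 1 and 10.9 (rank 6648, percentile 75.29, 78 bp, focus ratio 0.714) in replicate 2, with no TGTTTAC. The DDX19B peak lay in intron 1, at 328 bp with a score of 6.04 (rank 5777, percentile 52.21, focus ratio 0.63) in replicate 1, and at 309 bp with 13.2 (rank 4362, percentile 83.82, focus ratio 0.708) in replicate 2. It held the heptamer, so the paralogs differed in the class of the peak and in the motif, while both were found in each list. DDX6, a helicase of mRNA decay and storage, had 1 distant peak in replicate 2 (percentile 54.37, -29316 bp), and DDX25, a testis helicase, had 1 in replicate 1 (percentile 45.85, 64408 bp). DHX34 and DHX36 were found in replicate 2 only, and DHX29, a factor of translation initiation, had no peak.

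Antiviral RNA sensors were represented by DDX58, the gene now named RIGI, whose product detects viral RNA in the cytoplasm. Its promoter peak scored 8.3 (rank 2960, percentile 75.6, -260 bp, focus ratio 0.806) in replicate 1 and 9.96 (rank 7837, percentile 70.8, -270 bp, focus ratio 0.786) in replicate 2. The neighbours DDX60 and DDX60L each had 1 intron peak in replicate 2, at percentiles 0.392 and 9.03, close to the bottom of the list, and DHX58 had none.

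DHX30, which acts in mitochondrial RNA and ribosome assembly, had the weakest promoter pair. It scored 3.96 (rank 11262, percentile 7.54, -473 bp, focus ratio 0.628) in replicate 1 and 5.65 (rank 18588, percentile 30.91, -488 bp, focus ratio 0.615) in replicate 2. A second DHX30 peak at 282 bp was called in replicate 2 only, with a higher score of 10.7 (percentile 74.61). DDX59 had a promoter pair at -436 bp (score 6.23, rank 5476, percentile 54.89, focus ratio 0.702) and -503 bp (score 9.07, rank 9351, percentile 65.2, focus ratio 0.724), and DHX32 an intron pair in a MER57E1 element at 1740 and 1700 bp (percentiles 26.7 and 22.23). DHX57 was found in replicate 2 only.

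The 3 germ cell helicases, DDX4, DDX43 and DDX53, had no peak in either replicate, which also held for 45.6% of all protein-coding genes. Of the 4 members linked to DNA, R-loops, snRNPs and tRNA, DDX1 and DDX11 had 1 distant peak each in replicate 2, and DDX20 and DHX9 had none. In all, 14 of 52 members had no assigned peak (26.9%, 16.8% to 40.3%), beside those 45.6% of all genes, and the others among them were DDX27, DDX28, DDX39B, DDX42, DDX54, DHX29, DHX33, DHX38 and DHX58.

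**Figure D2:**
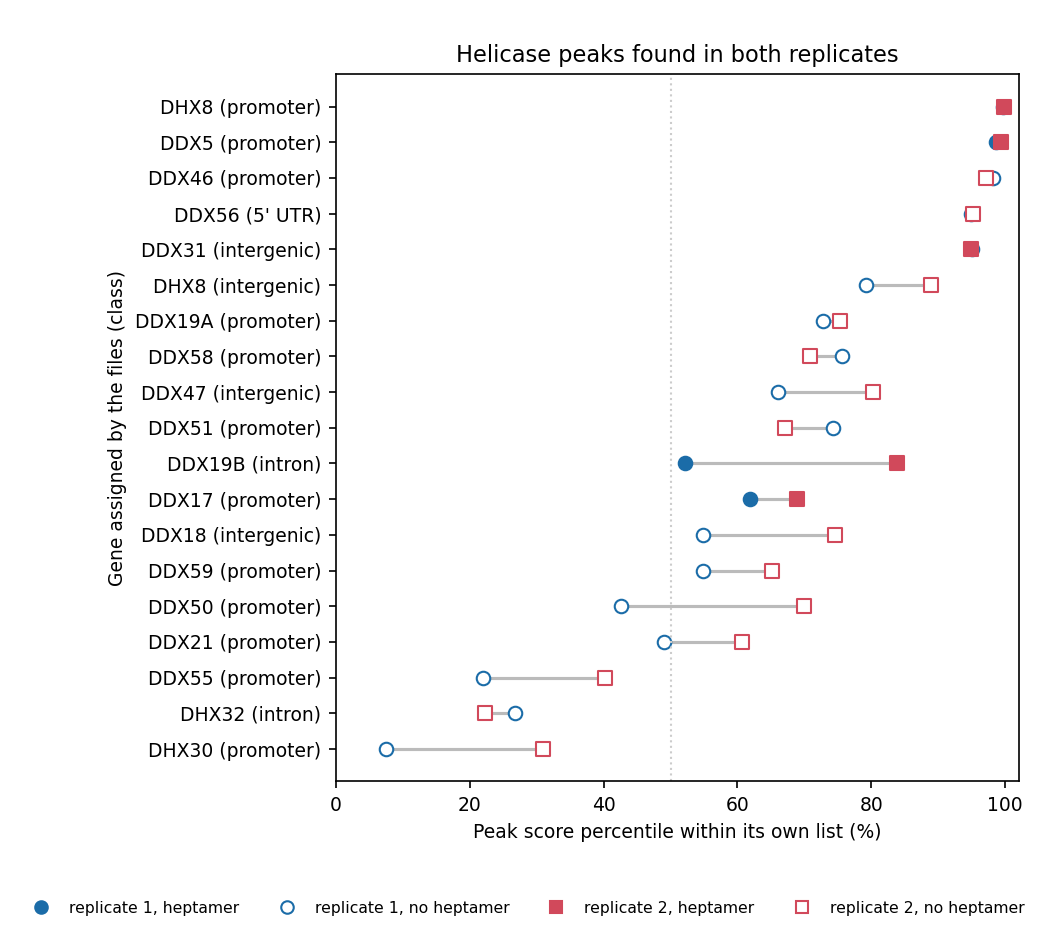
Score percentile within its own list (horizontal axis, percent, 100 is the strongest) for the 19 overlapping pairs of helicase peaks, ordered by their mean. Circles are replicate 1, squares are replicate 2, and filled symbols mark TGTTTAC within 100 bp of the centre; the upper 5 pairs lie above 94 in both replicates, and DHX30 is lowest with 7.54 and 30.91.

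Lack of an assigned peak did not mean lack of a peak at the promoter. At 6 of 52 members a peak centre fell in the promoter in both replicates while at least 1 list assigned the member no peak, the promoter peak having gone to a neighbour (11.5%, 5.40% to 23%). Of all protein-coding genes matched in GENCODE, 2.92% had a promoter peak in both replicates and no assigned peak in at least 1. The strongest case was DDX28, a mitochondrial helicase of ribosome assembly, which starts 52 bp from DUS2 on the other strand: the peak assigned to DUS2 scored 20.8 in replicate 1 (rank 247, percentile 98) and 38.2 in replicate 2 (rank 293, percentile 98.9). At DDX42, the peaks were assigned to CCDC47, the stronger with scores of 11.1 (rank 1375) and 16.1 (rank 2805). At DDX27, assigned to STAU1, the scores were 7.92 (percentile 72.8) and 16.8 (percentile 90.7).

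For DDX54, peaks went to RITA1 (scores 6.41 and 14.1), and for DDX39B to its antisense gene DDX39B-AS1 (scores 4.34 and 6.39). DDX49, described above, was the remaining case. The peaks at DDX28, DDX42, DDX27, DDX54, DDX39B and DDX49 held no TGTTTAC within 100 bp of the centre, as most promoter peaks did not (14.4% of all promoter peaks held it in replicate 1 and 10.9% in replicate 2). In replicate 2 alone, the promoters of DDX11, DDX19B, DDX20, DHX9, DHX32 and DHX38 also held a peak given to another gene, the strongest at DHX38 (assigned to TXNL4B, score 10.7, percentile 74.6). In replicate 1 alone, a peak at the DDX31 promoter was assigned to GTF3C4, which starts 481 bp away on the other strand (score 6.98, percentile 64). Another peak of replicate 1 alone, assigned to ETV4 (score 4.9, percentile 30.8), lay at a GENCODE transcript start of DHX8. That start is near the 3′ end of DHX8, far from the DHX8 promoter peak described above. For neighbours with starts close together, the gene that a peak belongs to cannot be told apart from its position.

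Helicase peaks lay at promoters more often than FOXK2 peaks in general. The promoter class held 13 of 22 helicase peaks in replicate 1 (59.1%, 38.7% to 76.7%), against 21.7% of all peaks, and 23 of 65 in replicate 2 (35.4%, 24.9% to 47.5%), against 18.0%. Introns held 13.6% (4.75% to 33.3%) against 39.0%, and 21.5% (13.3% to 33.0%) against 40.6%. Intergenic shares were 22.7% against 34.1% in replicate 1 and 33.8% against 36.5% in replicate 2, inside the intervals of 10.1% to 43.4% and 23.5% to 46.0%. Peaks of 1 gene are not independent, which these intervals do not cover.

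**Figure D3:**
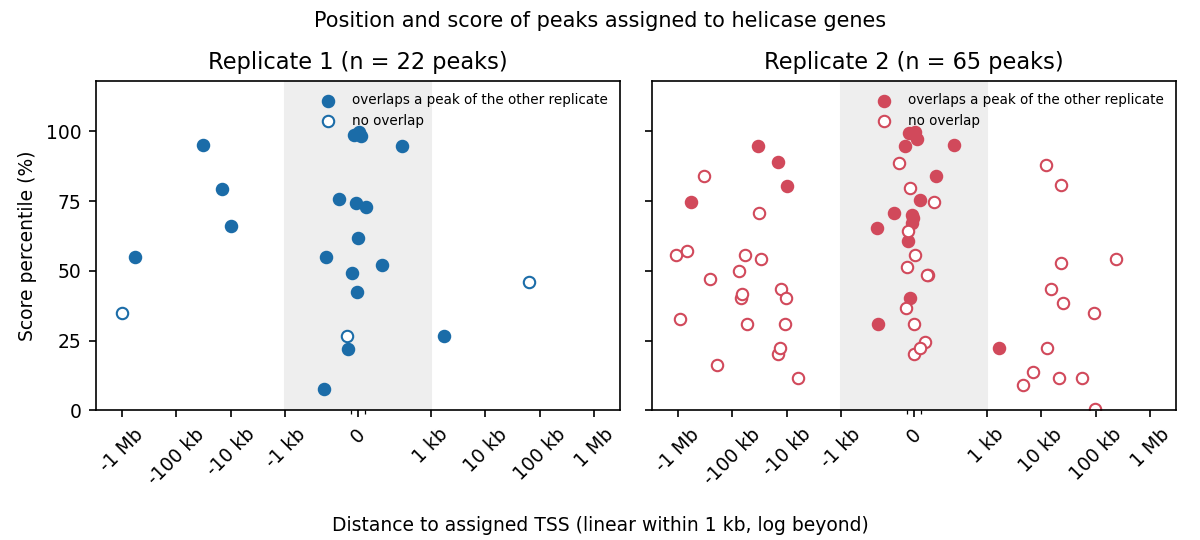
Each point is a helicase peak, with its distance to the assigned TSS (horizontal axis, linear within 1 kb and logarithmic beyond) and its score percentile (vertical axis, percent), in replicate 1 with 22 peaks and replicate 2 with 65 peaks. Filled points overlap a peak of the other replicate; in replicate 2 most distant peaks are open, and filled points gather in the shaded band within 1000 bp of the TSS.

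The lists shared most helicase peaks from the side of replicate 1. Of its 22 peaks, 19 had at least 1 bp in common with a replicate 2 peak (86.4%, 66.7% to 95.3%), against 74.9% of all its peaks. Of the 65 replicate 2 peaks, 20 overlapped a replicate 1 peak (30.8%, 20.9% to 42.8%), against 34.2%. Peaks with a partner had the higher medians, among the helicase peaks as among all peaks. In replicate 1 the median percentile of helicase peaks was 66.1 with a partner and 34.8 for the 3 peaks without one, and that of all peaks was 59.7 and 26.7. In replicate 2 it was 74.9 (n = 20) and 41.9 (n = 45), and for all peaks 77.9 and 34.8. At promoters 13 of 23 replicate 2 helicase peaks had a partner (56.5%, 36.8% to 74.4%, against 43.9%), and elsewhere 7 of 42 had one (16.7%, 8.32% to 30.6%, against 32.1%).

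The strength of helicase peaks was compared with that of all peaks and within classes. The median percentile was 58.4 in replicate 1, where all peaks had 49.1 because of tied scores, and 51.4 in replicate 2, where all had 50. With replicate 2 limited to as many peaks as replicate 1, its helicase median was the lower one, 45.2 against 50.2. Among promoter peaks it was 61.9 against 59.7 and 65.2 against 64.1. Outside promoters the helicase median was the higher one in replicate 1 (54.9 against 45.8, 9 helicase peaks) and the lower one in replicate 2 (43.5 against 46.9, 42 helicase peaks). Single peaks spread widely: the percentile of replicate 1 ran from 7.54 to 99.7, and that of replicate 2 from 0.392 to 99.8.

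Taken as a whole, the helicase peaks held the heptamer about as often as all peaks did. Searched for on either strand and up to 100 bp from the centre, TGTTTAC was in 5 of 22 helicase peaks in replicate 1 (22.7%, 10.1% to 43.4%), against 30.5% of all peaks, and in 17 of 65 in replicate 2 (26.2%, 17% to 38%), against 28.2%. Equal windows placed 2000 bp away on both sides held it in 2.27% of cases around helicase peaks in replicate 1 (1 of 44) and 3.85% in replicate 2 (5 of 130), against 2.88% and 2.89% around all peaks. Among promoter peaks the shares were 3 of 13 (23.1%, 8.18% to 50.3%) against 14.4%, and 4 of 23 (17.4%, 6.98% to 37.1%) against 10.9%. Outside promoters they were 2 of 9 (22.2%, 6.32% to 54.7%) against 35%, and 13 of 42 (31%, 19.1% to 46%) against 32%. Among peaks with a partner they were 5 of 19 (26.3%, 11.8% to 48.8%) against 34.3%, and 5 of 20 (25%, 11.2% to 46.9%) against 34.9%. Every one of these backgrounds lay within the interval of the helicase peaks. In the degenerate forkhead core RYAAAYA, R is A or G and Y is C or T. TGTTTAC is 1 form of it on the other strand. RYAAAYA was in 27.3% of replicate 1 helicase peaks (13.2% to 48.2%), against 57.9% of all peaks. In replicate 2 it was in 47.7% (36% to 59.6%), against 56.9%. For RYAAAYA the background lay above the interval in replicate 1 and within it in replicate 2. The RYAAAYA shares were not split by class, although promoters held 59.1% of replicate 1 helicase peaks against 21.7% of all peaks. Whether the RYAAAYA difference remains within a class was not tested.

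**Figure D4:**
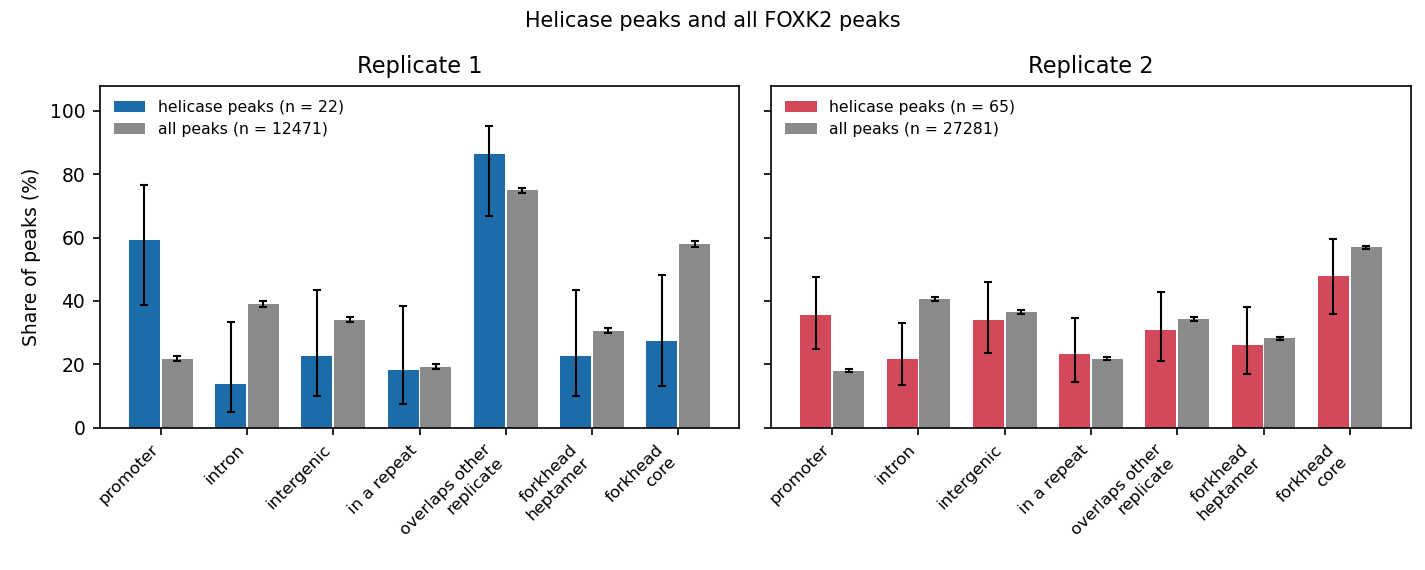
Share of helicase peaks (coloured bars) and of all peaks (grey bars) in each replicate by class, repeat overlap, overlap with the other replicate, the heptamer TGTTTAC and the core RYAAAYA (vertical axis, percent; error bars are 95% Wilson intervals). The promoter bar of helicase peaks is above the grey bar and the intron bar below it in both replicates, while the heptamer bars differ by less than the intervals.

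Promoter pairs without TGTTTAC are shown by the 2 with the highest mean percentile over both replicates, DDX46 and DDX19A, in the stretch that lies outside every annotated exon. The DDX46 stretch spans chr5:134758674-134758770 and that of DDX19A chr16:70346838-70346860, both hg38, plus strand and 5′ to 3′. Capitals mark CCGGAAG on either strand, the common core of ETS factor sites, which was searched for after the data were seen.
DDX46: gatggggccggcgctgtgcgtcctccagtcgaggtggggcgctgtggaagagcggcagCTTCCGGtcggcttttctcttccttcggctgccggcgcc
DDX19A: atgtcgcacgctgggtgggaact

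CCGGAAG was found in some promoter peaks of the family. It was in 5 of 13 helicase promoter peaks in replicate 1 (38.5%, 17.7% to 64.5%), against 18.0% of all promoter peaks. In replicate 2 it was in 8 of 23 (34.8%, 18.8% to 55.1%), against 18.4%. The background lay within the interval in replicate 1 and just below it in replicate 2. DHX8, DDX46, DDX19A, DDX21 and DDX50 held it in both replicates, and the 5′ UTR pair of DDX56 did too. It is shown for the paralogs DDX50 (chr10:68901256-68901284) and DDX21 (chr10:68956099-68956127), both on the plus strand, where the site lay 7 and 73 bp from the replicate 1 peak centre, and for DHX8 (chr17:43483947-43483975, plus strand), where it lay 27 bp from that centre and near the forkhead site printed above.
DDX50: cggtgcgtgtcCCGGAAGtgacgcatggc
DDX21: tcctgcttcccCCGGAAGtgccttgctac
DHX8: cgcgcgctgacCCGGAAGtgaaagctgga

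The DDX51 promoter, shared with NOC4L, which starts 138 bp away on the other strand, held a further repeated sequence, noticed in these data. GACGTCA or its reverse complement TGACGTC, the core of CREB and ATF sites, occurred 3 times without overlap in the peak of each replicate. Of all promoter peaks, 4.87% in replicate 1 and 5.76% in replicate 2 held at least 1 copy, and 2 of 2709 and 1 of 4910 held 3 or more, DDX51 among them in both. Among helicase promoter peaks 2 of 13 had a copy in replicate 1 (DDX51 and DDX19A) and 5 of 23 in replicate 2 (also DDX10, DDX49 and DHX36). The stretch between the annotated exons of both genes is chr12:132144320-132144456, hg38, minus strand, 5′ to 3′, with the copies in capitals.
DDX51: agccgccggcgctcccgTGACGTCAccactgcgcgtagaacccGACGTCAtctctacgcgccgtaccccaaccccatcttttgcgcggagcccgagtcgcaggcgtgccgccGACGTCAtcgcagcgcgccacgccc

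Repeats carried some of the pairs outside promoters. Elements of the LTR class, which derive from retroviruses, held 3 of 22 helicase peaks in replicate 1 (13.6%, 4.75% to 33.3%), against 5.48% of all peaks, and 6 of 65 in replicate 2 (9.23%, 4.30% to 18.7%), against 6.32%. The pairs at DDX31, DDX47 and DHX32 are the 3 of replicate 1, and of these DDX31 had the heptamer. Near DHX32 and DDX47 the peaks held a site TGAGTCA or TGACTCA, as AP-1 factors bind, which 18.2% of helicase peaks in replicate 1 (7.31% to 38.5%) and 10.8% in replicate 2 (5.32% to 20.6%) had, against 16.4% and 16.6% of all peaks.

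Helicases of the DEAD and DEAH families and related families under other symbols were counted beside the members. Of 12 such genes, 4 had overlapping peaks in both replicates, where the share of all protein-coding genes was 25.5%, and 0 had overlapping promoter peaks, where it was 9.03%. DDX3X, a translation helicase on the X chromosome, had a pair with TGTTTAC at -1637 bp (score 6.79, percentile 61.9) and -1609 bp (score 13.2, percentile 83.8). EIF4A2, a cap-binding complex helicase, had one at -30408 bp (score 8.68, percentile 78.1) and -30441 bp (score 19.0, percentile 93.4), also with the heptamer. MTREX and ASCC3 had weaker overlapping peaks, and IFIH1, an RNA sensor related to RIG-I, had no peak in either list.

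Partners of the helicases were counted in the same way, in small lists chosen with earlier results known, beside 25.5% of all protein-coding genes with overlapping peaks and 9.03% with overlapping promoter peaks. Of the 10 partners in the eIF4F cap-binding and exon junction complexes, 8 had overlapping peaks and 7 overlapping promoter peaks: EIF4G1, EIF4B, EIF4H, PDCD4, MAGOH, MAGOHB and RBM8A. MAGOH, a core protein of the exon junction complex, had the strongest of them (score 8.68, rank 2659 in replicate 1, and score 17.8, rank 2148 in replicate 2), and none of the 7 held TGTTTAC, which 14.4% and 10.9% of all promoter peaks did. Of 6 partners of DDX6 and DDX19, 2 had overlapping peaks, with CNOT1, the scaffold of the CCR4-NOT deadenylase, at its promoter (scores 8.87 and 13.8). Of 8 G-patch partners of DHX15, GPATCH2 alone had an overlapping pair. Of 6 genes in RNA sensor signalling, TRIM25, a ubiquitin ligase that acts on RIG-I, had the strongest pair, at -1998 and -2005 bp (scores 11.7 and 21.7, percentiles 90.1 and 95.4), and ZC3HAV1 had the other overlapping pair.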

How the data were processed

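The 2 deposited FOXK2 peak lists of OVCAR5 cells, 1 per replicate, were the input. According to the methods, the authors mapped reads to hg38 with Bowtie2 2.2.6 and called peaks with HOMER 4.10. Each replicate has a deposited list of its own, and whether calling used pooled reads is not given in the sources used here. The deposited peak score is scaled to its library, and the deposited focus ratio is a fraction of tags. The deposited distance to the TSS is in bp. Lists were used with no further threshold.

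Peaks of replicates were counted as overlapping from 1 bp. Gene shares were taken over RefSeq protein-coding genes matched by gene ID, and 19138 of these, with all 52 members, were matched in GENCODE release 44. Sequence was read from hg38, the build of the files. Shares carry Wilson 95% intervals. Members, role lists and partner lists were chosen with earlier results of these data known. All members may be named, with full values for the 10 genes with the best overlapping pair and for every overlapping promoter pair. Beyond that rule, peaks given to neighbouring genes, DDX18, DDX10, DHX15, DHX32, and the searches for the ETS core, the CREB and ATF core and sites with 1 base changed were chosen after values were seen. Alternatives were lists of equal length, the upper part of each list by score, promoter peaks only and leaving out each replicate. For genes and promoters they were overlapping peaks, GENCODE promoters, distance limits of 100000 and 10000 bp and a centre within 1000 bp of the assigned TSS. A stricter overlap, motif windows of 50 and 500 bp and the RYAAAYA core were the others. Overlap and motif steps, tested on simulated data, had an error of 0 percentage points. The simulated sequence around planted heptamers was C and G only, and simulated peaks stood far apart. Heptamers that arise by chance and crowded peaks were therefore not tested. Tools were samtools 1.23.1 and Python 3.11.15 with pysam 0.24.0, pandas 2.3.3, numpy 2.4.6, scipy 1.17.1 and matplotlib 3.10.9. Input libraries were not analysed here.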

Additional observations from a re-analysis of the deposited data

How the results depend on the processing

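Of 33 alternative values, 24 stayed within the limit (1.5 times for a count, the 95% interval for a share, and for a median 4.94, the SD of the 2 replicates' medians) and 9 moved. With 1 replicate left out, the helicase genes with a peak numbered 20 to 36 in place of 18 in both, and those with a promoter peak 13 to 23 in place of 12. With replicate 1 left out the counts were 36 and 23 (51.7% and 21.2% of all protein-coding genes), and with replicate 2 left out 20 and 13 (31.3% and 11.9%), since a peak is then asked for in 1 list. Promoters taken from GENCODE gave 19 genes (14.4% of all 20037). With the higher-scoring part of each list, the overlapped share of replicate 1 helicase peaks was 100% (14 of 14, against 88.4% of all peaks so limited) and the promoter share of replicate 2 was 48.5% (against 23.7%). With lists of equal length, that promoter share was 50% (against 24.2%) and the median percentile of replicate 2 was 45.2, below the 50.2 of all peaks, where the full list had 51.4 against 50, so its direction turned. With promoter peaks only, the median was 65.2 against 64.1. The RYAAAYA core in place of TGTTTAC gave 47.7% in replicate 2 (against 56.9%). In replicate 1 it gave 27.3%, which stayed within the limit but lay further below its background of 57.9%. The cause was not tested beyond how these settings are built. No paired analysis was possible because the 2 libraries used are replicates of a single condition and no result comes from a test. With 22 and 65 peaks the intervals are wide, and a peak missing from the shorter list may lie below its threshold, which was not tested.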
